A study of Triticum aestivum with 23 samples.

Results

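The comparison of the double mutant *tabri1-bd* with its null segregant *TaBRI1-NS* asks how the transcriptome of wheat seedlings differs when 2 of the 3 homoeologous copies of the brassinosteroid (BR) receptor gene are truncated. It rests on 8 of the 23 RNA-seq libraries of the series, 4 of *tabri1-bd* and 4 of *TaBRI1-NS*, and on every gene with a TPM (the length-scaled share of transcripts in a library) of at least 0.5 in at least 3 of these 8 libraries. This rule kept 71678 of the 266760 genes in the table, of which 55801 are high-confidence gene models and 15877 are low-confidence models (identifiers ending in LC). Of the genes kept, 57595 reached 0.5 TPM in all 8 libraries and 2845 in exactly 3, while 3677 genes reached it in 2 libraries and were left out. Among the genes kept, 361 passed through *tabri1-bd* libraries alone and 317 through *TaBRI1-NS* libraries alone.

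*tabri1-bd* carries premature stop alleles of *TaBRI1-B* and *TaBRI1-D* and a wild-type *TaBRI1-A*. The alleles came from chemically mutagenised (EMS) lines of the spring cultivar Cadenza, which were inter-crossed and backcrossed 3 times to non-mutagenised Cadenza. *TaBRI1-NS* is the null segregant of the same selfed population and carries none of the *tabri1* alleles. Both therefore share the Cadenza background and may each have kept other mutations from the mutagenised parents. The levels of 4 further genotypes are given beside the results without a test. These are *tabri1-a.1bd*, in which *TaBRI1-A* also has a premature stop, *tabri1-a.2bd* and *tabri1-a.3bd*, in which it has an amino acid substitution induced by a further EMS treatment of *tabri1-bd*, and Cadenza itself. Seedlings were grown under constant light to leaf stage 2, and RNA came from all tissue above ground, with several plants pooled in each biological replicate. The labels do not say more of how the replicates were grown, so the tests measure the spread between these libraries. In bulk tissue, fewer cells of a type and less RNA per cell cannot be told apart. The tissue could not be checked against marker genes, because only the 76 genes of the study's BR list could be given names.

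BRs are steroid hormones that promote cell elongation and set leaf angle and stem height in cereals. They bind the leucine-rich repeat receptor kinase BRI1 at the cell surface, which then pairs with the co-receptor BAK1 and releases the inhibitor BKI1. The signal inactivates the kinase BIN2 and leaves BZR transcription factors free to act, and these repress several BR synthesis genes, so that signalling limits the supply of its own hormone. Bread wheat is hexaploid and carries most genes as homoeologues on the A, B and D subgenomes.

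The reads recovered from the TPM numbered 22528350 to 30075976 in the *tabri1-bd* libraries and 27451986 to 37258981 in the *TaBRI1-NS* libraries. Over the genes tested, log2 levels correlated with r between 0.965 and 0.977 within *tabri1-bd*, between 0.954 and 0.961 within *TaBRI1-NS*, and between 0.954 and 0.970 across the genotypes. The first principal component of the 500 most variable genes held 25.8% of their variance and separated all *tabri1-bd* libraries, at 9.63 to 13.98, from all *TaBRI1-NS* libraries, at -17.1 to -6.90. The 3 libraries of *tabri1-a.1bd* stood apart from the rest of the series and from each other, with r between 0.835 and 0.952 among them, and with r of at most 0.71, 0.8294 and 0.869 between replicates 1, 2 and 3 and any library of another genotype. In Cadenza, *tabri1-a.2bd* and *tabri1-a.3bd* no pair of libraries of the same genotype was under 0.943, so means given for *tabri1-a.1bd* carry a wider spread.

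Transcripts of the truncated receptor genes were still present, and no difference from the null segregant was detected. *TaBRI1-B* (TraesCS3B03G0712100) had 4.15, 4.69, 4.58 and 3.95 TPM in *tabri1-bd*, against 4.52, 3.30, 4.41 and 4.06 TPM in *TaBRI1-NS*. For *TaBRI1-D* (TraesCS3D03G0579600) the levels were 7.64, 6.22, 6.91 and 6.90 TPM in *tabri1-bd*, against 7.08, 7.84, 5.73 and 6.70 TPM in *TaBRI1-NS*. The wild-type copy *TaBRI1-A* (TraesCS3A03G0629800) had 5.39, 4.97, 4.51 and 4.72 TPM in *tabri1-bd*, against 4.89, 4.76, 4.41 and 3.90 TPM in *TaBRI1-NS*. The groups overlapped for each of the 3 genes. The log2 change was 0.09 for *TaBRI1-B* (95% interval -0.19 to 0.37), 0.02 for *TaBRI1-D* (-0.24 to 0.28) and 0.11 for *TaBRI1-A* (-0.13 to 0.36), with limma adjusted p of 0.915, 0.986 and 0.856. The sign for *TaBRI1-D* turned to -0.025 without *tabri1-bd* replicate 1 and to -0.056 without *TaBRI1-NS* replicate 3. TPM count transcripts of either allele, so these values check neither stop codon.

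Of the 71678 genes, 116 (0.162%) were called with limma on log2(TPM + 0.5), where a call needed an adjusted p (Benjamini-Hochberg) of at most 0.05, 65 higher in *tabri1-bd* (0.0907%) and 51 lower (0.0712%). On this scale, the fold changes of weakly expressed genes come out too small. The libraries of the genotypes did not overlap for any of the 116, whereas they did not overlap for 5.35% of all genes tested, and 6348 genes (8.86%) had an unadjusted p under 0.05. Of the called genes, 70 changed by more than 2-fold, 30 upward and 40 downward, and 37 were low-confidence models (31.9%, against 22.2% of the genes tested). Over all genes tested, the log2 change had a median of 0.0046. TPM are shares of a library, so this median does not measure the total amount of RNA. Among the genes without overlap, more were wholly higher in *tabri1-bd* (2399, or 3.35% of genes tested) than wholly lower (1434, or 2.00%). This imbalance holds for those genes only, since the median of 0.0046 shows at most a slight lean over all genes tested.

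The number called rested on the libraries. It was 25, 24, 20 and 19 without *tabri1-bd* replicate 1, 2, 3 and 4, and 38, 40 and 39 without *TaBRI1-NS* replicate 1, 2 and 3, but 149 without *TaBRI1-NS* replicate 4. With each library left out in turn, 17 of the 116 genes were called in all 8 fits, 6 of them higher and 11 lower in *tabri1-bd*, and 28 genes were called in none. Of the 17, however, 9 had passed the filter through 1 genotype alone, which favoured a difference in advance. The others were 4 higher and 4 lower. Over all calls, 22 of the 116 had passed through 1 genotype alone, against 678 of the 71678 genes tested. A voom fit of the recovered reads called 591 genes (0.825%), 444 higher (0.620%) and 147 lower, among them 94 of the 116 and all 17. A fit with the replicate number as a block called 10 genes, among them 8 of the 17.

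Called genes were spread over all 21 chromosomes, with between 1 (4A and 5A) and 9 (3B) on each apart from 6B. Chromosome 6B held 14, of which 13 were higher in *tabri1-bd*, or 0.452% of its 3100 tested genes. The A, B and D subgenomes held 29, 47 and 40 called genes (0.122%, 0.194% and 0.172% of those tested). No called gene was unplaced. The 50 tested genes on either side of each *TaBRI1* homoeologue held 0 called genes, against 0.162% of all genes tested. At that share, 0 calls among 100 genes say little. Median log2 changes were -0.02 around *TaBRI1-A*, -0.0038 around *TaBRI1-B* and 0.01 around *TaBRI1-D*. Of the 100 genes around each, 6, 7 and 5 had an unadjusted p under 0.05 in the limma fit (against 8.86% of all genes). Voom called 1, 0 and 0 (against 0.825% of all genes).

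**Figure D1:**
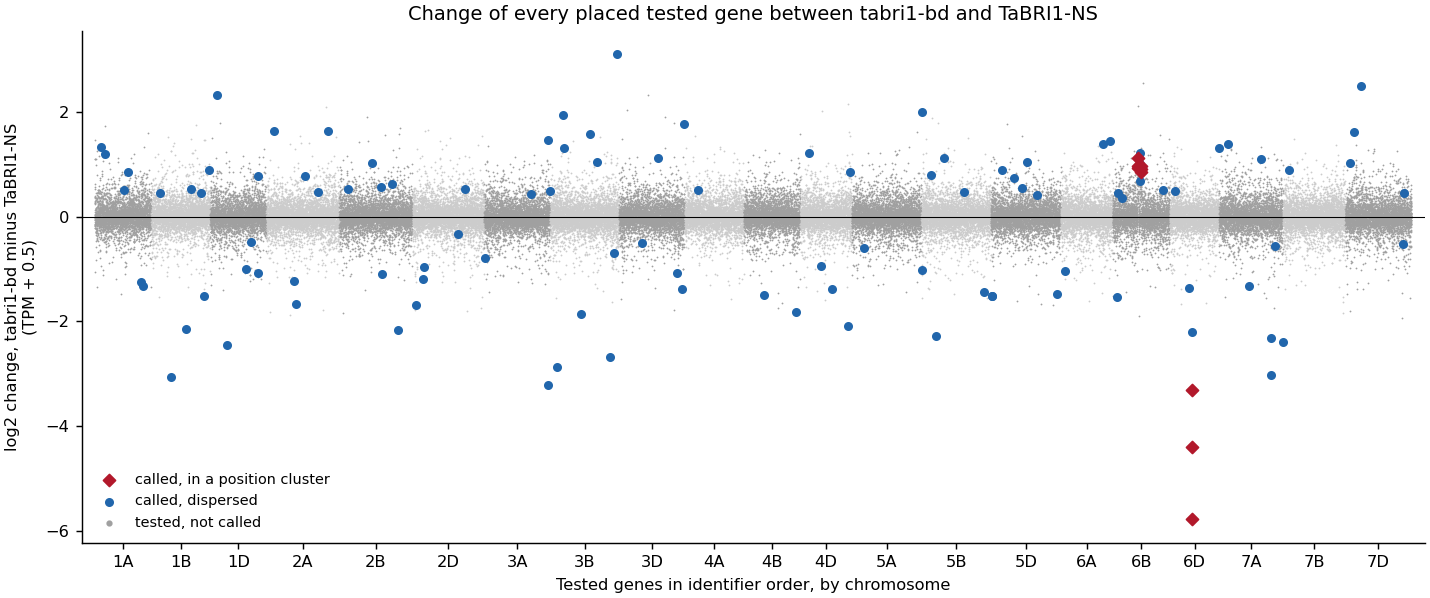
Log2 change of each placed tested gene between *tabri1-bd* and *TaBRI1-NS*, on the log2(TPM + 0.5) scale, against its order along the chromosomes, with 1 point per gene. Red diamonds are the 9 called genes in position clusters, which lie on 6B (above 0) and 6D (below 0), and blue circles are the 107 dispersed called genes, on every chromosome.

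To separate genes clustered by position from dispersed ones, called genes were grouped along the order of the gene numbers in their identifiers. A cluster needed at least 3 called genes with at most 10 tested, uncalled genes between neighbours. This left 9 called genes in 3 clusters, 2 on 6B and 1 on 6D, and 107 called genes outside them.

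The 6D cluster was an absence of transcripts. Its 3 genes are neighbours among the tested genes and had 0 reads in all 4 *tabri1-bd* libraries, while each was present in every other library of the series. TraesCS6D03G0467100 had 31.2, 25.4, 25.98 and 26.4 TPM in *TaBRI1-NS*, which makes it at least 692-fold lower in *tabri1-bd* when 3 reads over the 4 libraries are taken as the limit that a count of 0 allows. TraesCS6D03G0467400 had 9.83, 9.10, 11.2 and 10.2 TPM in *TaBRI1-NS* and was at least 145-fold lower. TraesCS6D03G0466900LC had 5.45, 5.07, 5.75 and 2.43 TPM in *TaBRI1-NS* and was at least 29.6-fold lower. The log2 changes of the 3 genes were -5.79, -4.40 and -3.31. They passed the filter on low values through *TaBRI1-NS* alone, so a test that calls them adds nothing to these levels. These intervals and limits cover counting error only.

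The other genotypes did not share this absence. TraesCS6D03G0467100 lay between 12.9 and 21.6 TPM in *tabri1-a.1bd*, between 23.3 and 27.0 TPM in *tabri1-a.2bd* as well as between 22.3 and 28.6 TPM in *tabri1-a.3bd*, against 21.1 to 26.4 TPM in Cadenza. TraesCS6D03G0467400 averaged 4.82, 5.79 and 6.84 TPM in these 3 triple mutants and 5.93 TPM in Cadenza, and TraesCS6D03G0466900LC averaged 5.37, 5.37 and 5.11 TPM in the triple mutants and 4.08 TPM in Cadenza. The genes were thus transcribed in *tabri1-a.2bd* and *tabri1-a.3bd*, which descend from *tabri1-bd*.

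The 6B clusters were rises of close to 2-fold. In the first, TraesCS6B03G0637300 had 88.6, 80.8, 90.8 and 98.6 TPM in *tabri1-bd*, against 36.3, 46.2, 49.3 and 50.5 TPM in *TaBRI1-NS* (log2 change 0.98 ± 0.11 SE, adjusted p = 0.0156). TraesCS6B03G0634500 averaged 24.3 ± 3.24 TPM in *tabri1-bd* and 12.5 ± 1.37 TPM in *TaBRI1-NS* (SD, n = 4 each; limma adjusted p = 0.0307), and TraesCS6B03G0633800LC averaged 10.7 ± 1.30 and 4.71 ± 1.13 TPM in the same order (adjusted p = 0.0363). Every *tabri1-bd* library lay above every *TaBRI1-NS* library for these genes. In the second, TraesCS6B03G0701900 had 54.6, 48.7, 47.3 and 49.7 TPM in *tabri1-bd*, against 23.1, 27.5, 27.2 and 32.5 TPM in *TaBRI1-NS* (log2 change 0.86 ± 0.10 SE, adjusted p = 0.0196). TraesCS6B03G0698200 averaged 8.03 ± 0.751 TPM in *tabri1-bd* and 3.86 ± 0.76 TPM in *TaBRI1-NS* (SD, n = 4 each; limma adjusted p = 0.0384), and TraesCS6B03G0706700 averaged 6.94 ± 0.799 and 3.43 ± 0.397 TPM in the same order (adjusted p = 0.0344).

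These 6 calls were close to the threshold. None of the 6 was called without *tabri1-bd* replicate 1, 3 or 4, while 2 were called without *tabri1-bd* replicate 2, and 3, 1, 2 and 4 were called without *TaBRI1-NS* replicate 1, 2, 3 and 4. Their log2 changes stayed between 0.78 and 1.26 under all alternatives.

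Of the 14 called 6B genes, 10 stood in longer stretches of genes that shifted in the same direction. Windows of 20 neighbouring tested genes were examined for this after the calls had been seen, and a median log2 change of at least 0.4 in size over a run of at least 20 windows was found on 6B alone. Elsewhere, the highest window median was 0.38 on 6D and 0.37 on 7D, and no chromosome had a window median below -0.24. The first 6B segment ran over 60 tested genes from TraesCS6B03G0627500 to TraesCS6B03G0647700, with a median log2 change of 0.69 (quartiles 0.49 and 0.91) and 58 genes above 0. The second ran over 64 tested genes from TraesCS6B03G0680800 to TraesCS6B03G0706700, with a median of 0.64 (quartiles 0.52 and 0.76) and 63 genes above 0. The 71 tested genes between them had a median of -0.04, with 27 above 0. Of these, limma called 0 (against 0.162% of all genes), with 6 at an unadjusted p under 0.05 (against 8.86%), and voom called 0 (against 0.825%). As the segments were chosen for these changes, the values describe them and are no test.

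The segments held 10 of the 116 called genes, the 6 of the clusters and 4 that the cluster rule had left outside. These 4, named after their values had been seen, rose in *tabri1-bd* by log2 changes of 1.22 (TraesCS6B03G0693400), 1.13 (TraesCS6B03G0647700), 1.01 (TraesCS6B03G0682300) and 0.68 (TraesCS6B03G0686900). TraesCS6B03G0686900 had 18.1, 17.4, 18.0 and 16.8 TPM in *tabri1-bd*, against 9.69, 11.5, 11.3 and 10.7 TPM in *TaBRI1-NS*. With clusters and segments set aside, 103 called genes remained, 55 higher and 48 lower in *tabri1-bd*.

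Levels in Cadenza and the triple mutants were not used to find the segments. Of the segment genes that averaged 1 TPM or more in Cadenza (54 in each segment), the median TPM relative to that mean in the first segment was 0.817 to 0.941 in the *tabri1-bd* libraries, against 0.412 to 0.575 in the *TaBRI1-NS* libraries. In the second segment it was 0.822 to 0.937 in *tabri1-bd*, against 0.465 to 0.545 in *TaBRI1-NS*. For the 66 such genes between the segments it was 0.751 to 0.865 in *tabri1-bd*, against 0.78 to 0.864 in *TaBRI1-NS*. It was thus the null segregant that lay far from Cadenza in the segments, at about the midpoint between 0 and the Cadenza level.

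The triple mutants fell into separate kinds. In *tabri1-a.3bd* the segment medians were 0.939 to 1.01 of the Cadenza mean, and no gene stayed at 5% of it or less throughout. In *tabri1-a.1bd* and *tabri1-a.2bd* the segment medians were 0 in every library, and 52 of 54 genes in the first segment stayed at 5% of the Cadenza mean or less throughout in each of these genotypes, as did 46 and 47 of 54 genes in the second. Between the segments 1 of 66 genes was so low in each. *TaBRI1-NS* therefore lay between *tabri1-bd*, *tabri1-a.3bd* and Cadenza on the one side and *tabri1-a.1bd* and *tabri1-a.2bd* on the other.

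**Figure D2:**
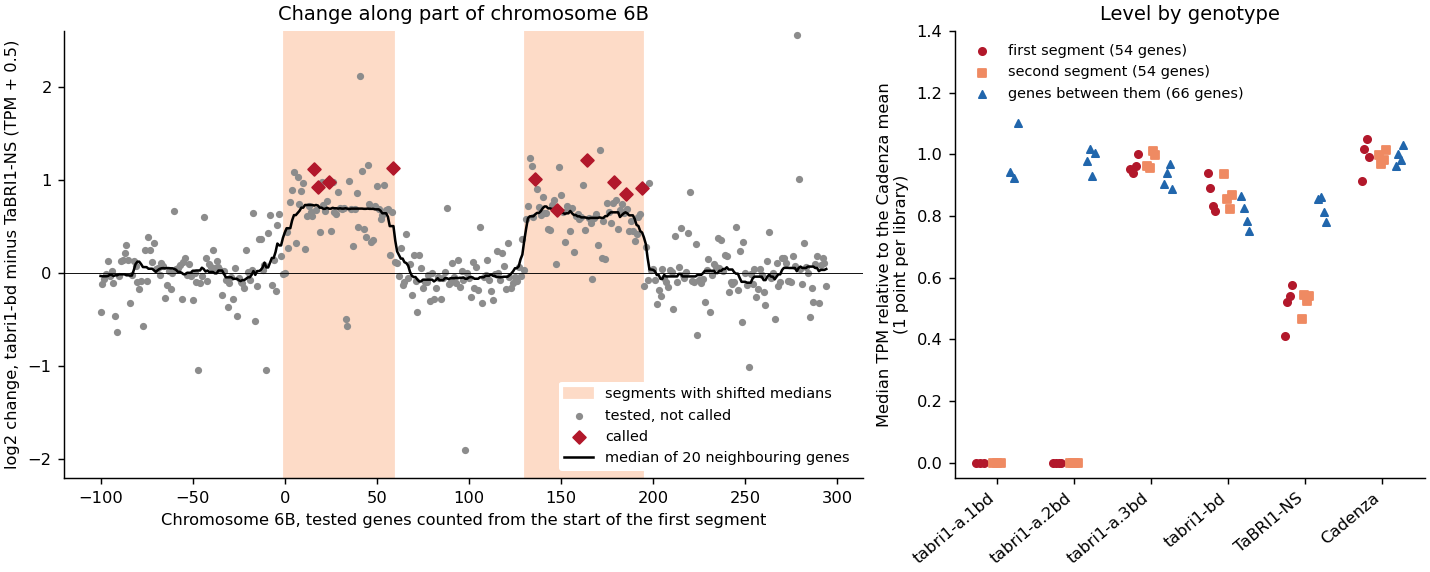
Left, log2 change between *tabri1-bd* and *TaBRI1-NS* for tested genes in order along part of chromosome 6B, with the running median of 20 genes in black, called genes as red diamonds and the segments shaded. Right, the median TPM of the genes of each segment and of the genes between them, relative to the Cadenza mean, with 1 point per library: in the segments *tabri1-bd* lies between 0.817 and 0.941, *TaBRI1-NS* between 0.412 and 0.575, and *tabri1-a.1bd* and *tabri1-a.2bd* at 0.

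Among the 107 dispersed called genes, 59 were higher and 48 lower in *tabri1-bd*. Level and size of change went together across the called genes. The 30 called rises with a mean under 10 TPM over the 8 libraries had a median log2 change of 1.27, and 25 of them exceeded 2-fold. The 19 called rises at 50 TPM or more had a median of 0.50, and none exceeded 2-fold. Of the 51 called falls, 40 had a mean under 10 TPM and a median log2 change of -1.50. A gene with low TPM needs a larger change to be called, so this relation describes the calls and not all genes.

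**Figure D3:**
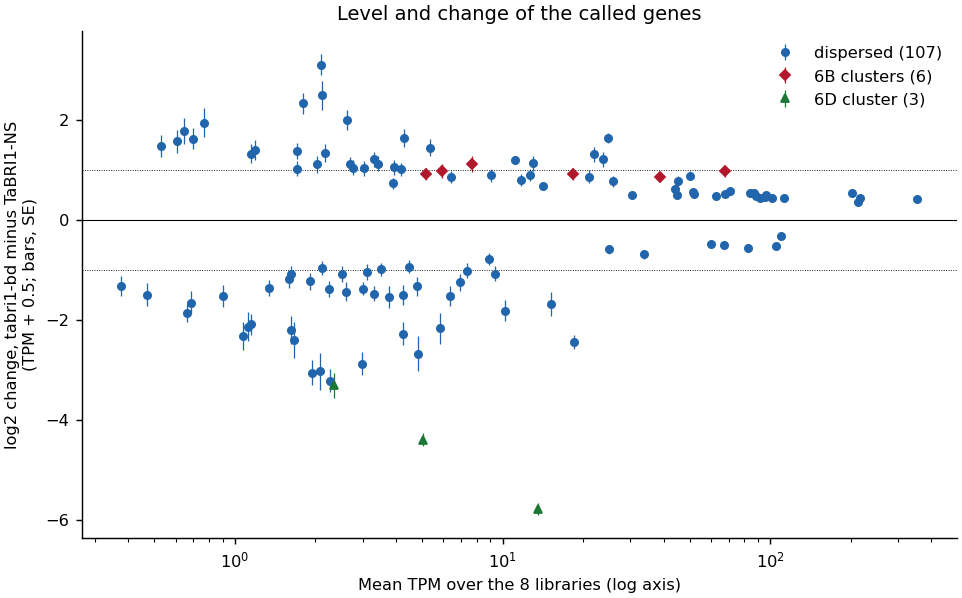
Log2 change of the 116 called genes between *tabri1-bd* and *TaBRI1-NS*, on the log2(TPM + 0.5) scale with the limma SE as bars, against their mean TPM over the 8 libraries on a log axis. Dotted lines mark a 2-fold change; the 19 rises at 50 TPM or more all lie under it, and the 6D cluster holds the lowest point, at -5.79.

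Of the dispersed rises, 3 high-confidence genes under 50 TPM were called with every library left out. TraesCS2A03G1125500 had 38.7, 36.3, 38.1 and 37.1 TPM in *tabri1-bd*, against 11.2, 13.4, 9.99 and 12.7 TPM in *TaBRI1-NS* (log2 change 1.63 ± 0.10 SE, adjusted p = 0.000324). It averaged 10.3 TPM in *tabri1-a.1bd*, 39.0 TPM in *tabri1-a.2bd* as well as 43.9 TPM in *tabri1-a.3bd*, against 37.4 TPM in Cadenza, so that *TaBRI1-NS* and *tabri1-a.1bd* stood below the other genotypes. TraesCS1A03G0247600, named after its values had been seen, had 16.4, 16.3, 14.3 and 15.8 TPM in *tabri1-bd*, against 6.18, 6.61, 6.81 and 6.63 TPM in *TaBRI1-NS* (log2 change 1.20 ± 0.08 SE, adjusted p = 0.000727). It averaged 10.1 TPM in *tabri1-a.1bd*, 5.02 TPM in *tabri1-a.2bd* as well as 14.6 TPM in *tabri1-a.3bd*, against 10.3 TPM in Cadenza. TraesCS5B03G0022900 had 4.16, 3.90, 4.15 and 5.80 TPM in *tabri1-bd*, against 0.364, 0.922, 0.914 and 0.825 TPM in *TaBRI1-NS* (log2 change 2.01 ± 0.20 SE, adjusted p = 0.00861). Cadenza had 5.23 to 13.3 TPM of it, above *TaBRI1-NS* and from within the range of *tabri1-bd* upward. The a.1bd, a.2bd and a.3bd triple mutants averaged 1.65, 0.921 and 0.93 TPM of it, each nearer *TaBRI1-NS* than *tabri1-bd*. Its neighbour TraesCS5B03G0022700, also named after its values were seen, moved the other way, with 4.92, 4.93, 5.75 and 3.45 TPM in *tabri1-bd*, against 11.3, 9.73, 10.3 and 8.76 TPM in *TaBRI1-NS* (log2 change -1.01), and with at most 0.0165 TPM in Cadenza.

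Most of the other largest rises were low-confidence models with few reads. TraesCS3B03G1471800LC had 6.01, 2.94, 3.74 and 3.93 TPM in *tabri1-bd*, against 0, 0.115, 0 and 0 TPM in *TaBRI1-NS*, or 137 reads against 1, a ratio of 165 per read sequenced with a 95% counting interval of 29.2 to 6571. The a.1bd, a.2bd and a.3bd triple mutants averaged 9.68, 0.0702 and 0.059 TPM of it, against 0.217 TPM in Cadenza. The a.2bd, a.3bd and Cadenza ranges overlapped that of *TaBRI1-NS* and not that of *tabri1-bd*. TraesCS1D03G0173300LC had 3.62, 3.35, 2.82 and 3.49 TPM in *tabri1-bd*, against 0, 0.427, 0.311 and 0.366 TPM in *TaBRI1-NS*, and averaged 7.68 TPM in Cadenza. These genes, with log2 changes of 3.10 and 2.33, passed the filter through *tabri1-bd* alone.

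The remaining rises named by size were called in at most 5 of the 8 fits with a library left out. TraesCS7D03G0377500LC had 4.66, 4.27, 5.23 and 1.73 TPM in *tabri1-bd*, against 0.222, 0.171, 0.186 and 0.439 TPM in *TaBRI1-NS*, and was called in 2. TraesCS2A03G0172800LC averaged 6.73 ± 1.35 TPM in *tabri1-bd* and 1.83 ± 0.433 TPM in *TaBRI1-NS* and was called in 5. TraesCS7D03G0216900LC averaged 1.31 ± 0.151 TPM in *tabri1-bd* and 0.0941 ± 0.122 TPM in *TaBRI1-NS* and was called in 2. TraesCS3B03G0341100LC and TraesCS3D03G1184400LC were at 0 in all *TaBRI1-NS* libraries, which makes them at least 14.6-fold and 9.97-fold higher in *tabri1-bd* against 3 reads over the 4 libraries, and TraesCS3B03G0821200LC had 14 reads in *tabri1-bd* and 1 in *TaBRI1-NS*, a ratio of 16.9 with a 95% counting interval of 2.57 to 714. These 3 genes were called in 1, 0 and 0 of the 8 fits.

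The rises of abundant genes were small. TraesCS5D03G0800200, the most abundant, had 406, 394, 396 and 422 TPM in *tabri1-bd*, against 282, 286, 301 and 339 TPM in *TaBRI1-NS* (log2 change 0.42 ± 0.06 SE, adjusted p = 0.0424). TraesCS2B03G0257400 had 241, 238, 239 and 239 TPM in *tabri1-bd*, against 177, 158, 165 and 162 TPM in *TaBRI1-NS* (log2 change 0.53 ± 0.05 SE, adjusted p = 0.00567), and TraesCS1B03G1265300 had 58.3, 73.1, 62.1 and 67.7 TPM in *tabri1-bd*, against 31.0, 34.8, 38.1 and 36.1 TPM in *TaBRI1-NS* (log2 change 0.89 ± 0.09 SE, adjusted p = 0.00951). These 3 were named after their values had been seen, and the ratio of mean TPM over all 19 such rises ran between 1.28 and 1.97. The 3351 tested genes at 50 TPM or more had a median log2 change of 0.0019, and 0.567% of them were called higher.

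The calls of these abundant genes leaned on single libraries. Only TraesCS2B03G0257400 was called with each library left out, and 17 of the 19 were called without *TaBRI1-NS* replicate 4, while between 1 and 4 were called without any other single library. All 19 were called by voom on the recovered reads. On the log2 scale, the Cadenza mean was nearer *TaBRI1-NS* than *tabri1-bd* for 18 of the 19, the exception being TraesCS6B03G0637300 of the first 6B cluster. The *tabri1-a.2bd* mean was nearer *tabri1-bd* for 5, as was that of *tabri1-a.3bd*. The *tabri1-a.1bd* libraries were too far apart for such a count.

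Among the dispersed falls, TraesCS1D03G0343000 was the clearest at a moderate level. It had 5.43, 7.50, 4.87 and 4.24 TPM in *tabri1-bd*, against 32.5, 30.4, 33.6 and 29.9 TPM in *TaBRI1-NS* (log2 change -2.44 ± 0.15 SE, adjusted p = 0.000325). It averaged 7.96 TPM in *tabri1-a.1bd*, 5.42 TPM in *tabri1-a.2bd* as well as 11.8 TPM in *tabri1-a.3bd*, against 13.9 TPM in Cadenza, so that *TaBRI1-NS* stood above every other genotype. TraesCS3B03G0225800 had 0.247, 0.15, 0.69 and 0.272 TPM in *tabri1-bd*, against 4.92, 5.57, 4.42 and 7.57 TPM in *TaBRI1-NS* (log2 change -2.88 ± 0.23 SE, adjusted p = 0.00171). Its Cadenza libraries lay between 5.88 and 6.84 TPM, with *TaBRI1-NS* and not with *tabri1-bd*. The a.1bd, a.2bd and a.3bd triple mutants averaged 2.62, 4.98 and 3.82 TPM, also nearer *TaBRI1-NS*, though the a.1bd range reached that of *tabri1-bd*. TraesCS5B03G0295100LC had 0.867, 1.12, 0.645 and 2.14 TPM in *tabri1-bd*, against 6.09, 7.59, 7.61 and 7.97 TPM in *TaBRI1-NS* (log2 change -2.27 ± 0.24 SE, adjusted p = 0.0104). It was low in each genotype with the *tabri1-b* and *tabri1-d* alleles, averaging 0.776, 1.82 and 2.65 TPM in the a.1bd, a.2bd and a.3bd triple mutants, against 11.4 TPM in Cadenza.

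Other falls were from a low level to no reads or nearly none. TraesCS1B03G0486500 had 0 TPM in all 4 *tabri1-bd* libraries, against 5.38, 2.86, 5.002 and 2.28 TPM in *TaBRI1-NS*, and was at least 125-fold lower against 3 reads over the 4 libraries. It was also at 0 in all 4 Cadenza libraries, and averaged 2.98, 0.535 and 1.37 TPM in the 3 triple mutants. TraesCS3A03G1218700LC had 0, 0, 0 and 0.0887 TPM in *tabri1-bd*, against 3.90, 5.91, 5.39 and 2.78 TPM in *TaBRI1-NS* (1 read against 253, a ratio of 0.00477 with an upper 95% counting limit of 0.0268), and averaged 0.207 TPM in Cadenza. The neighbours TraesCS7A03G1066900 and TraesCS7A03G1067000LC were both at 0 in *tabri1-bd* and averaged 4.17 ± 2.88 and 2.15 ± 0.90 TPM in *TaBRI1-NS*, at least 25.3-fold and 18.7-fold lower. Cadenza averaged 0.714 and 0.846 TPM of this pair, and each triple mutant had more than *TaBRI1-NS*, with 6.16 to 10.6 TPM on average. The first of these genes was called in 3 and the second in 1 of the 8 fits with a library left out.

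The last named falls, TraesCS3B03G1203600LC, TraesCS7B03G0007400 and TraesCS6D03G0478800LC, averaged 0.809, 0.175 and 0.282 TPM in *tabri1-bd*, against 8.86, 3.16 and 2.97 TPM in *TaBRI1-NS*. For these 3 the Cadenza means, 0.478, 0.882 and 0.429 TPM, were nearer *tabri1-bd*, and the calls held in 2, 1 and 1 of the 8 fits. In all, 10 tested genes were at 0 in every *tabri1-bd* library and at 0.5 TPM or more in every *TaBRI1-NS* library, and 9 of them were called. The converse held for 3 genes, of which 2 were called. Such genes passed the filter through 1 genotype alone.

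**Figure D4:**
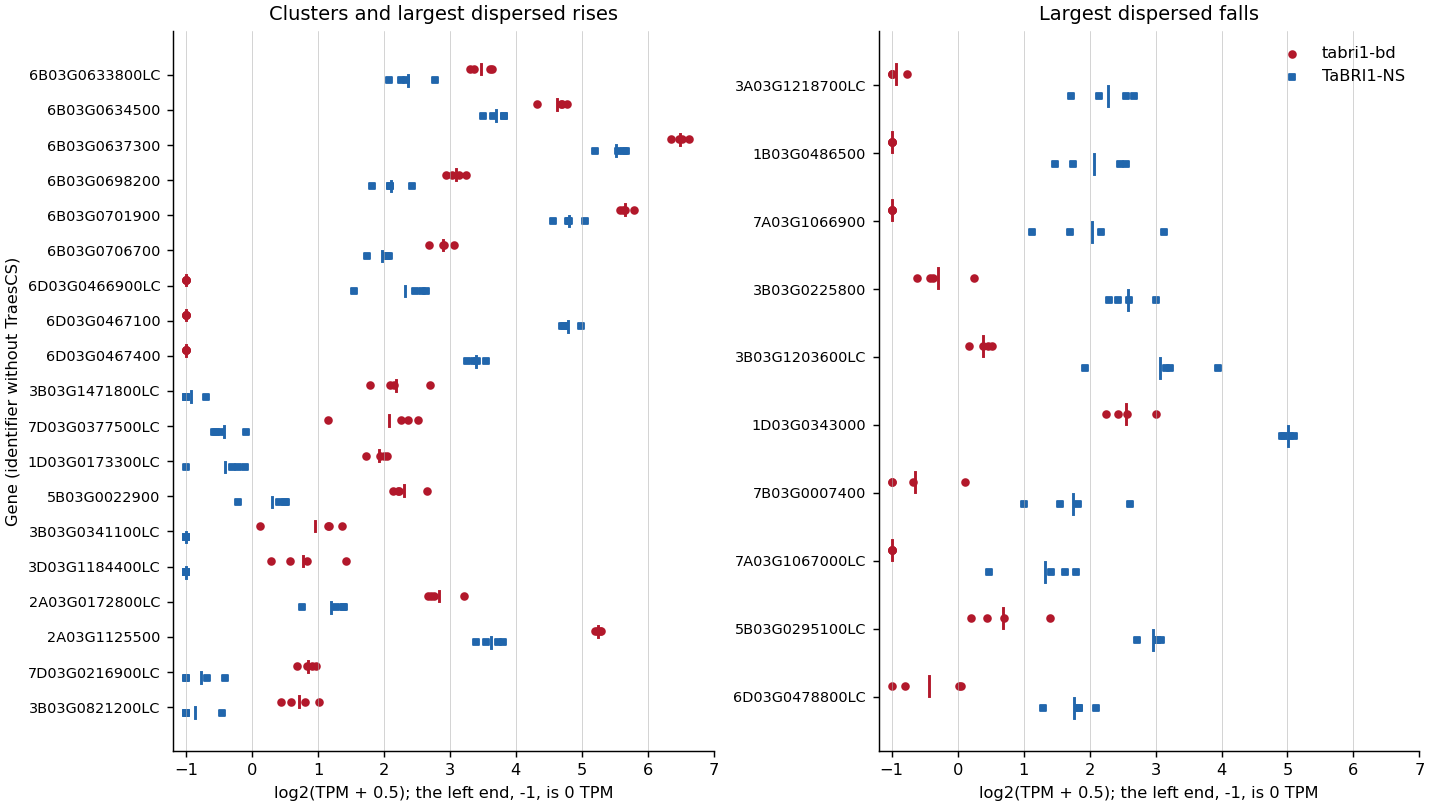
Log2(TPM + 0.5) of the genes of the position clusters, the 10 largest dispersed rises and the 10 largest dispersed falls, with 1 point per library, *tabri1-bd* as red circles above *TaBRI1-NS* as blue squares, and vertical bars at the group means. The genotypes do not overlap for any of these 29 genes, and the 6D genes lie at 0 TPM in all 4 *tabri1-bd* libraries.

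Falls of abundant genes were likewise small. TraesCS7A03G1163900 had 66.6, 63.0, 65.7 and 71.4 TPM in *tabri1-bd*, against 99.4, 96.4, 91.5 and 107 TPM in *TaBRI1-NS* (log2 change -0.56 ± 0.07 SE, adjusted p = 0.0196), and TraesCS3D03G0458500LC had 58.1, 53.1, 55.4 and 55.0 TPM in *tabri1-bd*, against 77.4, 76.6, 80.7 and 81.4 TPM in *TaBRI1-NS* (log2 change -0.51 ± 0.06 SE, adjusted p = 0.0137). Both were named after their values had been seen. In Cadenza the first lay between 107 and 113 TPM and the second between 73.2 and 81.1 TPM. Only 5 called falls were at 50 TPM or more.

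The other genotypes gave the dispersed calls different company. Outside the 6B segments, the Cadenza mean was nearer *tabri1-bd* for 16 of 55 dispersed rises and 17 of 48 dispersed falls, and nearer *TaBRI1-NS* for 39 and 31. For the falls, *tabri1-a.2bd* was nearer *tabri1-bd* for 33 of 48, as was *tabri1-a.3bd*, and for the rises each was so for 24 of 55. These are levels without a test, and the genes were chosen because *tabri1-bd* and *TaBRI1-NS* differed. For 23 of the 116 genes the Cadenza range overlapped neither genotype, and it overlapped only *tabri1-bd* for 30 and only *TaBRI1-NS* for 56.

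No gene of the BR pathway was called. The list is the one the study used, and the paper cites earlier reports for its BR-pathway genes. It holds 76 genes, of which 66 passed the filter. The limma fit called 0 of them (against 0.162% of all genes), with the lowest adjusted p at 0.131, while 7 had an unadjusted p under 0.05 (against 8.86% of all genes) and voom called 1 (against 0.825% of all genes). The median log2 change over the list was 0.09, against 0.0046 over all genes, with 41 above 0 and 25 below 0. For 63 of the 66 the 95% interval on the log2(TPM + 0.5) scale lay within 2-fold either way, except *TaDET2-A*, *TaDET2-B* and *TaBKI1-D*. This scale makes the changes of weakly expressed genes too small, so the intervals do not bound their fold change. For *TaBR6ox1-A1* the log2 change was 0.61 on this scale and 0.91 by voom.

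Of the 15 genes of the sterol steps before BR synthesis proper, the *TaDWF1* homoeologues had the lowest p-values. DWF1 (DIM1) is the sterol reductase that makes campesterol, the precursor of BRs. *TaDWF1-B* had 65.4, 59.6, 57.9 and 62.2 TPM in *tabri1-bd*, against 52.3, 50.4, 44.2 and 46.6 TPM in *TaBRI1-NS* (log2 change 0.34 ± 0.07 SE, adjusted p = 0.131), and was the gene called by voom (adjusted p = 0.0114). *TaDWF1-D* had 26.2, 24.1, 25.4 and 27.7 TPM in *tabri1-bd*, against 22.7, 20.1, 22.6 and 21.8 TPM in *TaBRI1-NS* (log2 change 0.24 ± 0.07 SE, adjusted p = 0.34). *TaDWF1-A* had 33.5, 29.8, 29.6 and 32.2 TPM in *tabri1-bd*, against 29.0, 25.5, 28.3 and 23.6 TPM in *TaBRI1-NS* (log2 change 0.23 ± 0.08 SE, adjusted p = 0.435). For each homoeologue every *tabri1-bd* library lay above every *TaBRI1-NS* library, as for 3.35% of all genes tested, but none passed the adjusted threshold in the limma fit. The *TaFACKEL1*, *TaHYD1*, *TaDWF7* and *TaDWF5* genes, for earlier steps that shape the sterol ring, had log2 changes between -0.13 and 0.29, all with overlapping libraries.

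Of the 27 BR synthesis genes, 21 were tested. DWARF4 and CPD, the cytochrome P450 enzymes of early side-chain and ring oxidation, are well-known targets of feedback by BZR factors. *TaDWARF4-4B* had 2.35, 2.44, 3.38 and 2.25 TPM in *tabri1-bd*, against 1.66, 2.94, 2.53 and 2.11 TPM in *TaBRI1-NS* (log2 change 0.15, 95% interval -0.25 to 0.56). *TaDWARF4-4A* had 0.754, 0.563, 0.576 and 0.664 TPM in *tabri1-bd*, against 0.377, 0.418, 0.542 and 0.533 TPM in *TaBRI1-NS*, without overlap (log2 change 0.24, 95% interval -0.17 to 0.64, adjusted p = 0.797). The log2 change of *TaDWARF4-4D* was 0.19 (adjusted p = 0.902), with overlapping libraries, and the copies on group 3 chromosomes were at 0 TPM in all 23 libraries. The *TaCPD1* genes had log2 changes between -0.09 and 0.10. *TaD11* and *TaD2*, P450 genes named from rice dwarf mutants, had changes between -0.07 and 0.24.

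BR6ox1 is the oxidase of the last step to castasterone, and its 6 tested members had log2 changes above 0. The same held for all tested members of the DWF1, DWARF4, BRI1 and BSK1 families. Conversely, all tested members of the HYD1, DWF5 and BSU1 families lay below 0, and the remaining families had members on both sides. *TaBR6ox1-A1* had 1.28, 1.61, 1.35 and 1.30 TPM in *tabri1-bd*, against 0.916, 0.528, 0.808 and 0.714 TPM in *TaBRI1-NS* (log2 change 0.61 ± 0.16 SE, 95% interval 0.24 to 0.98, adjusted p = 0.251). Its libraries did not overlap, whereas those of the other 5 tested members did, with log2 changes between 0.23 and 0.47 and no adjusted p under 0.608. *TaBR6ox1-B1*, *TaBR6ox1-A3* and *TaBR6ox1-B3* did not pass the filter. The *TaDET2* homoeologues, which encode the steroid reductase, diverged, with *TaDET2-B* at 0.60 (adjusted p = 0.48), *TaDET2-D* at 0.31 (adjusted p = 0.797) and *TaDET2-A* at -0.52 (adjusted p = 0.555) on the log2 scale. *TaDET2-A* had 4.00, 1.80, 3.22 and 3.86 TPM in *tabri1-bd*, against 5.40, 5.68, 3.54 and 4.31 TPM in *TaBRI1-NS*, so the libraries overlapped.

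Of the 12 receptor complex genes, 11 were tested and 0 had an unadjusted p under 0.05 or were called by voom. Over all genes tested, 8.86% had such a p and voom called 0.825%. The *TaBAK1* co-receptor genes had log2 changes between -0.14 and 0.11, with *TaBAK1-A1* under the filter. The *TaBKI1* genes, for the inhibitor of BRI1, had changes of -0.33 (*TaBKI1-A*), -0.36 (*TaBKI1-B*) and 0.50 (*TaBKI1-D*), with adjusted p between 0.617 and 0.679.

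Of the 22 signalling genes, 19 were tested and had log2 changes between -0.13 and 0.23. *TaBZR-A1*, for a BZR transcription factor, had 12.7, 15.6, 13.4 and 14.6 TPM in *tabri1-bd*, against 11.6, 12.3, 11.4 and 12.3 TPM in *TaBRI1-NS* (log2 change 0.23 ± 0.09 SE, adjusted p = 0.458), without overlap. The 8 other tested *TaBZR* genes had changes between -0.0055 and 0.22, including TraesCS3B03G0374100 and TraesCS3A03G0309300, whose symbols and chromosomes are crossed in the list and which are therefore given by identifier. The *TaBIN2* genes, for the kinase that holds BZR factors inactive, had changes of 0.17, -0.02 and 0.20 on the A, B and D subgenomes. The receptor-like cytoplasmic kinase genes *TaBSK1* and *TaCDG1* and the phosphatase gene *TaBSU1*, which relay the signal from BRI1 to BIN2, had changes between -0.13 and 0.16. The 3 *TaBZR* genes on group 6 chromosomes did not pass the filter.

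**Figure D5:**
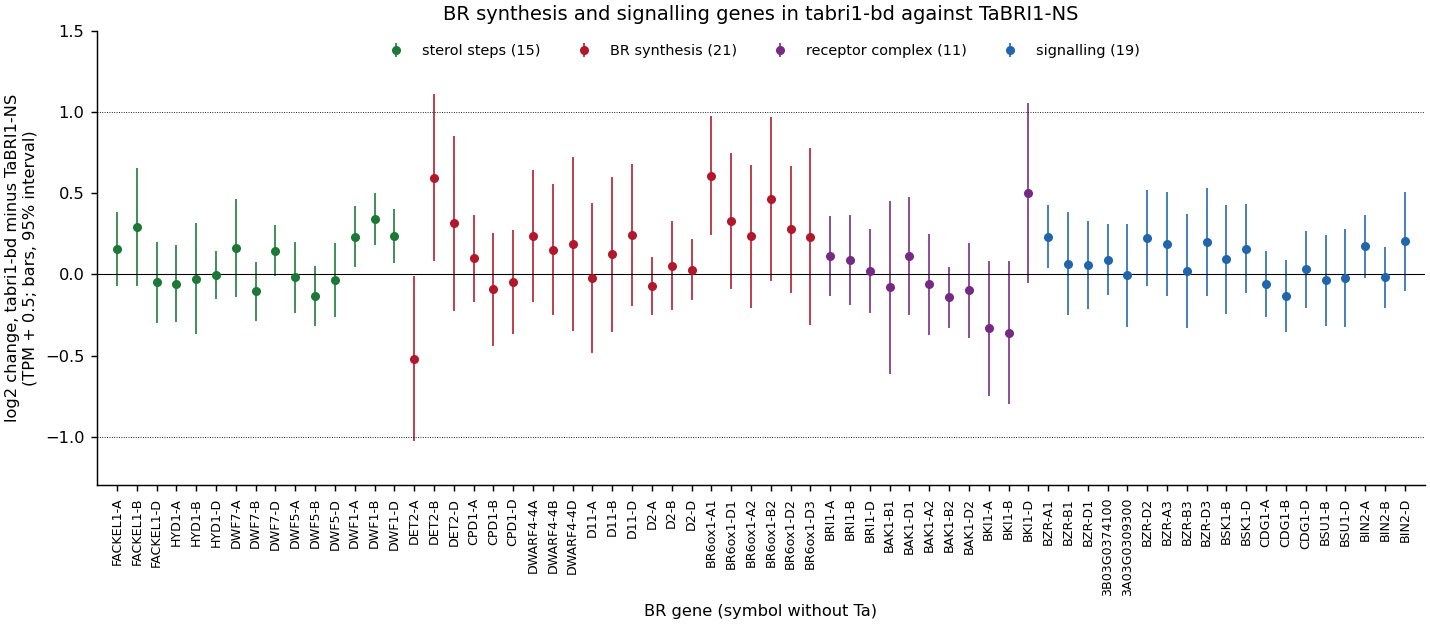
Log2 change of the 66 tested BR genes between *tabri1-bd* and *TaBRI1-NS*, on the log2(TPM + 0.5) scale, with the 95% interval of the limma fit as bars and colours for the pathway section. Dotted lines mark a 2-fold change on this scale, which makes the changes of weakly expressed genes too small. The intervals of 63 genes lie between the lines. Those of the *TaDWF1* genes, *TaBR6ox1-A1*, *TaDET2-B* and *TaBZR-A1* lie above 0, while that of *TaDET2-A* lies below 0. No gene passed the adjusted threshold.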

How the data were processed

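Reads were trimmed by the authors (Trimmomatic 0.39), aligned to IWGSC RefSeq v2.1 (STAR 2.7.8a), counted per gene (HTSeq 0.11.3) and tested with DESeq2. They deposited TPM per library without a filter or pooling. Counting options and gene lengths are not given in the sources used here. Libraries were grouped by genotype in their labels.

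TPM were fitted as log2(TPM + 0.5) for the 8 libraries alone with limma 3.58.1 (lmFit, eBayes with trend and robust) in R 4.3.3, without a covariate, and p-values were adjusted over all 71678 genes (Benjamini-Hochberg). Each TPM equals a whole number of reads times a fixed step, so the reads could be recovered (99.999% of 94749 genes with a value in 8 or more libraries, tolerance 0.02 reads), covering at least 99.7% of the TPM of these libraries. Reads gave the depth, the limit of 3 reads for genes at 0 and the voom alternative. The fit and the recovery were tested on simulated data. Position is the order of gene numbers in the identifiers, since 0 identifiers matched the gene name table used here. Gene symbols are those of the study's list. Reads of homoeologues or neighbouring copies may be shared, and the use of strand is not stated.

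The text names the *TaBRI1* homoeologues, the BR list, the called genes of each cluster and the 10 largest rises and 10 largest falls without overlap among dispersed calls. The members and lists were chosen with earlier results of these data known. The alternatives tried were pseudocounts of 0.1 and 1, a filter at 2 TPM or none, high-confidence models, median-of-ratios scaling, a 2-fold threshold, all 23 libraries in 1 fit, array weights, a replicate block, each library left out, voom, and other cluster rules. A fit without *tabri1-a.1bd* and the windows were added after seeing the data. Python 3.11.15 was used for tables and figures.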

Additional observations from a re-analysis of the deposited data

Results flagged for a closer look

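In 76 groups of 4 values (the TPM of named genes, depth and segment medians in each genotype), 7 had a highest or lowest library far from the other 3, where chance flags about 1 in 20. TraesCS6B03G0706700 was low in *TaBRI1-NS* replicate 1, with 2.84 TPM against 3.57 to 3.71 TPM in the others. TraesCS6D03G0467100 was high in *TaBRI1-NS* replicate 1, with 31.2 TPM against 25.4 to 26.4 TPM. TraesCS5B03G0022900 was high in *tabri1-bd* replicate 4, with 5.80 TPM against 3.90 to 4.16 TPM. TraesCS2A03G0172800LC was high in *tabri1-bd* replicate 1, with 8.74 TPM against 5.83 to 6.29 TPM. For TraesCS3B03G1471800LC (0.115 TPM in *TaBRI1-NS* replicate 2), TraesCS3B03G0821200LC (0.23 TPM in *TaBRI1-NS* replicate 3) and TraesCS3A03G1218700LC (0.0887 TPM in *tabri1-bd* replicate 4), the library was the only one above 0, with a single read.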

How the results depend on the processing

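The fit of the 8 libraries called 116 genes. Without a filter on low values 32 were called (14 higher and 18 lower in *tabri1-bd*; 3 in position clusters and 29 outside), and with a change of over 2-fold 70 (30 higher; 3 in clusters, 67 outside). Median-of-ratios scaling left 43 higher and 49 lower, and voom on the recovered reads gave 591 (444 higher, 147 lower; 122 in clusters, 469 outside; 1 BR gene, against 0). Calls in clusters numbered 18 with a filter of 2 TPM, 16 with high-confidence models, 46 with all 23 libraries in 1 fit (59 outside) and 49 in the fit without *tabri1-a.1bd*, which called 85 lower. With a smallest cluster of 2 or 5 genes, 17 or 0 genes were clustered. The causes were not tested. With each library left out, 19 to 149 genes were called, 7 to 110 higher, 11 to 39 lower, 3 to 12 in clusters and 16 to 137 outside, and 0 BR genes. Same-numbered libraries of the genotypes did not deviate together (r of -0.01, -0.05, 0.06 and 0.12), so the numbers were not taken as pairs. The replicate block called 10 genes, 3 higher and 7 lower, 3 in clusters and 7 outside, and 9 of them were among the 116. Of 759 values of 39 named genes under the alternatives, 586 kept direction and call, 170 lost the call, 1 gained it (*TaDWF1-B*, voom) and 2 turned (*TaBRI1-D*, -0.025 without *tabri1-bd* replicate 1 and -0.056 without *TaBRI1-NS* replicate 3, in a range of -0.056 to 0.085 with each library left out). Under 10 reads a gene, as for TraesCS3B03G0821200LC with 1 read in *TaBRI1-NS*, the depth limits the size of a change.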

Other observations

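Pairs of called neighbours too short to count as clusters were found on 3A, 5B, 5D and 7A. On 5D, TraesCS5D03G0023400LC averaged 1.99 ± 0.548 TPM in *tabri1-bd* and 6.52 ± 1.25 TPM in *TaBRI1-NS*, and TraesCS5D03G0023500LC averaged 3.05 ± 0.673 and 9.73 ± 2.40 TPM in the same order (SD, n = 4 each). Both had more in Cadenza, at 11.9 to 16.2 and 13.3 to 15.7 TPM. On 3A, TraesCS3A03G1220800LC averaged 1.01 ± 0.205 TPM in *tabri1-bd* and 0.0443 ± 0.0886 TPM in *TaBRI1-NS*, while its neighbour TraesCS3A03G1218700LC moved the other way.

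TraesCS3B03G0690900LC, on the chromosome of *TaBRI1-B*, had 0 TPM in the 4 *tabri1-bd* libraries, against 1.45, 1.30, 1.25 and 1.30 TPM in *TaBRI1-NS*, and was at least 111-fold lower against 3 reads over the 4 libraries. It reached at most 0.176 TPM in Cadenza and at most 0.0443 TPM in the triple mutants, so the null segregant alone had a clear level. TraesCS4D03G0772800LC had 0.128 ± 0.116 TPM in *tabri1-bd* and 2.17 ± 0.457 TPM in *TaBRI1-NS* (SD, n = 4 each), and averaged 0.196 TPM in Cadenza. TraesCS4D03G0516900LC had 1.45 ± 0.213 TPM in *tabri1-bd* and 4.56 ± 0.351 TPM in *TaBRI1-NS*, and averaged 1.92 TPM in *tabri1-a.1bd*, 9.19 TPM in *tabri1-a.2bd* as well as 8.07 TPM in *tabri1-a.3bd*, against 7.46 TPM in Cadenza. The first and second of these 3 genes passed the filter through *TaBRI1-NS* alone.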
